A study of Mus musculus with 12 samples.

Results

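The 10 genes described here belong to mitotic exit and cytokinesis: Racgap1, Ect2, Prc1, Anln, Cdc20, Ube2c, Plk1, Tpx2, Nusap1 and Top2a. They were measured in cells washed from the mouse peritoneal cavity. They are 10 of 55401 genes in the count table, and all 10 were among the 16915 genes that passed the filter on low counts. The members were selected on their CPM per library and on their differences between the 3 groups of these libraries. Their levels and fold changes are therefore given as a description with no test. Tests are given for other genes of the same machinery, taken from lists. Those lists were also chosen with earlier results of these data known, and the highest and lowest gene of each list are named. The p-values and counts of listed genes are therefore descriptions as well.

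The libraries are bulk RNA from lavage cells of C57BL/6J mice, with 4 libraries in each of 3 groups. The ID8 group had received intraperitoneal ID8 (defb29/Vegf-a) cells, an ovarian cancer line grown here as a tumour model. The ID8-FSHR group had received the same line labelled FSHR, which the series text describes as overexpressing the follicle-stimulating hormone receptor. The third group had no injection, so it carries neither tumour cells nor the injection itself. Lavage used 8 mL of saline and was done on day 7 after injection in the tumour groups; no day is given for the uninjected mice. The series text and the sample protocol give different numbers of injected cells. The labels give neither age nor sex, nor the vector that carries FSHR. The series text calls the replicates biological, but the labels name no individual animals.

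Lavage holds a mixture of cells, so a level is an average over tumour cells, macrophages and lymphocytes. In such bulk samples, fewer cells of a type and less RNA per cell cannot be told apart. Total counts per library ran from 47419608 to 64333677. The lowest count of any member in any library was 139, for Ube2c in an uninjected library. Defb29, which the injected line is labelled as carrying, had 0 counts in all 4 uninjected libraries and 423 to 1787 counts in the 8 tumour libraries. Fshr gave 0 counts in 9 libraries, 2 in ID8 replicate 3, 2 in ID8-FSHR replicate 3 and 7 in ID8-FSHR replicate 4. These counts do not show the stated overexpression. Whether FSHR from the vector would be counted as Fshr is not known, so they do not check the FSHR label. ID8-FSHR replicate 2 stood apart from the other tumour libraries. Its mean correlation with the uninjected libraries, over genes, was 0.914, against 0.868 to 0.880 for the other 7, and its Defb29 level was 8.41 CPM against 20.1 to 23.8 CPM in the rest of its group. CPM here are counts scaled by the effective library size (total count times the TMM factor).

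Cell division ends in linked programmes. The anaphase-promoting complex (APC/C), a ubiquitin ligase, is switched on by its coactivator Cdc20 and is served by the ubiquitin-conjugating enzyme Ube2c. It marks securin and B-type cyclins for destruction, so that sister chromatids part and Cdk1 activity drops. The spindle midzone then tells the cortex where to cut: Prc1 bundles antiparallel microtubules, Racgap1 with its kinesin partner Kif23 forms centralspindlin, centralspindlin recruits Ect2, Ect2 activates the GTPase RhoA, and anillin (Anln) ties RhoA, actin, myosin and septins together in the contractile ring. Plk1 is a kinase at several of these steps. Tpx2 and Nusap1 act on spindle microtubules near chromosomes, and Top2a untangles sister DNA. Transcripts of many of these genes peak in G2 and mitosis, under MuvB, B-Myb and FoxM1 complexes that act at the cell cycle genes homology region (CHR) in promoters, often beside CCAAT boxes bound by NF-Y.

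The promoters of the members are shown because the 10 genes moved largely together across the libraries. RefSeq windows of 300 bases (250 before to 50 after an annotated start, build GRCm38.p6) were matched by symbol for 9 members, in 11 windows. The CHR was searched as TTTGAA or its complement TTCAAA, and the CCAAT box as CCAAT or ATTGG, on either strand. The stretches printed run 5′ to 3′ along the gene's strand from 110 bases before to 30 after the start, with each match in capitals. Cdc20 is at chr4:118437314-118437453 (minus strand), Ube2c at chr2:164769819-164769958 (plus), Top2a at chr11:99024160-99024299 (minus) and Prc1 at chr7:80294341-80294480 (plus). Racgap1 is at chr15:99651627-99651766 (minus), Ect2 at chr3:27153825-27153964 (minus) and Nusap1 at chr2:119618188-119618327 (plus). The first 6 hold both motifs, and Nusap1 holds neither.
Cdc20: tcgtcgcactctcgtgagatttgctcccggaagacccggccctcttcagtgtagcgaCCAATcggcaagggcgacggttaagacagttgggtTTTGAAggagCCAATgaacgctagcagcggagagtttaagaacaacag
Ube2c: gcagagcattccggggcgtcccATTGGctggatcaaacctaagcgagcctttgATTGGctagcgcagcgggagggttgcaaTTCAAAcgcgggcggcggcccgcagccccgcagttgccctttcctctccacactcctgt
Top2a: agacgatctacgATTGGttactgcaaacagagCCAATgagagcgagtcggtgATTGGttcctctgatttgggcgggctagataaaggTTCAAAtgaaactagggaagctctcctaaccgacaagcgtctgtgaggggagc
Prc1: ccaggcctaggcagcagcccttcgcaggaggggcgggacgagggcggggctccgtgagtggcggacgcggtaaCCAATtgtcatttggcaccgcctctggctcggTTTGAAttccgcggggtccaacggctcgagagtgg
Racgap1: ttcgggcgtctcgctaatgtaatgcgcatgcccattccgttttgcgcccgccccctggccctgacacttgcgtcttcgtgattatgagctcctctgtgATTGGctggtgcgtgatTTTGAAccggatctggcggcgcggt
Ect2: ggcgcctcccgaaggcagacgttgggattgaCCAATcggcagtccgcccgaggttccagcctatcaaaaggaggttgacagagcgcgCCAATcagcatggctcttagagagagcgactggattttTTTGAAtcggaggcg
Nusap1: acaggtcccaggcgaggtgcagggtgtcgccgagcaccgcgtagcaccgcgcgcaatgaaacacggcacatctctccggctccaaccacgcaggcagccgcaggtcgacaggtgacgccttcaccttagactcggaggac

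A CHR was found in 10 of the 11 member windows, from 8 of the 9 genes, against 17.9% of all 32851 windows in the RefSeq table. A CCAAT box was found in 9 of the 11, from 7 of the 9 genes, against 37.4% of all windows. A window with both was found for 7 of the 9 genes, against 6.95% of all windows, so genes there stand beside windows. The 2 windows of Ect2 overlap, as do the 2 of Prc1, so the counts of member windows are not of independent sequences. In Cdc20, and for the CHR of Top2a nearest the start, 30 bases lay between the CHR and the CCAAT box before it. The gap was 27 bases in Prc1, 23 in Ube2c, 33 in Ect2, 39 in Plk1 and 12 in Racgap1. Anln held 2 CHR matches, at 22 to 27 and 29 to 34 bases after the start, and no CCAAT box. An E2F-type motif (TTTCCCGC or TTTGGCGC, either strand) was in no member window and in 1.56% of all windows. A match of letters is not a bound site, and a missing match says only that those letters are not in this window.

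**Figure D1:**
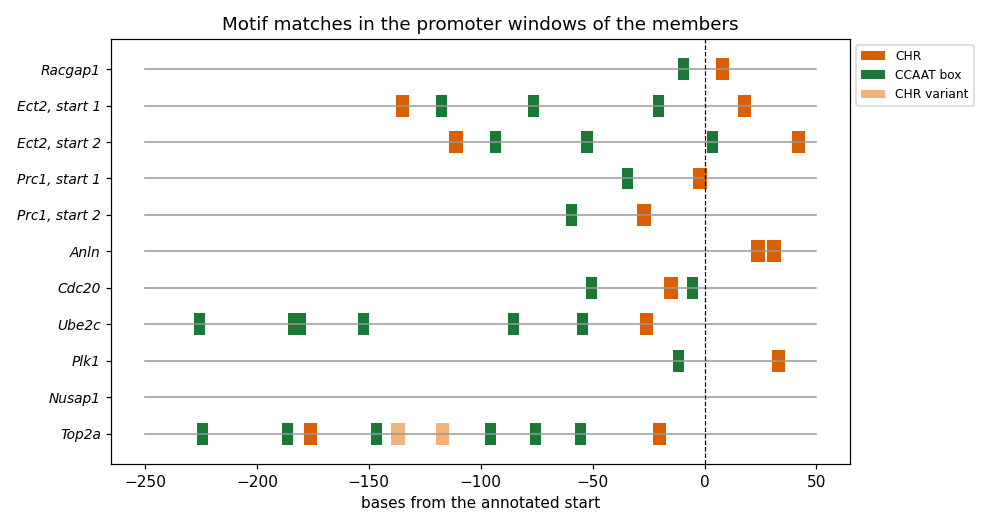
Motif matches in the 300-base RefSeq promoter windows of 9 members (Ect2 and Prc1 have 2 annotated starts each). The horizontal axis is the distance in bases from the annotated start, grey lines are windows, orange bars are CHR matches, pale orange bars the variant TTCGAA and green bars CCAAT boxes. The Nusap1 window has no match, and in the windows of Cdc20, Prc1 and Ube2c a CCAAT box lies 23 to 30 bases before a CHR.

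Across the libraries the members formed 3 levels: low without injection, intermediate with ID8 and high with ID8-FSHR. Their summed level was 153 ± 20.8 CPM (SD, n = 4) in uninjected lavage, 393 ± 67.2 CPM in ID8 lavage and 1315 ± 201 CPM in ID8-FSHR lavage. The sums ran from 134 to 183 CPM, from 348 to 494 CPM and from 1113 to 1516 CPM in the 3 groups, with no overlap. Racgap1 was the exception to the 3 levels. Its uninjected and ID8 libraries overlapped, and it separated only the ID8-FSHR group.

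**Figure D2:**
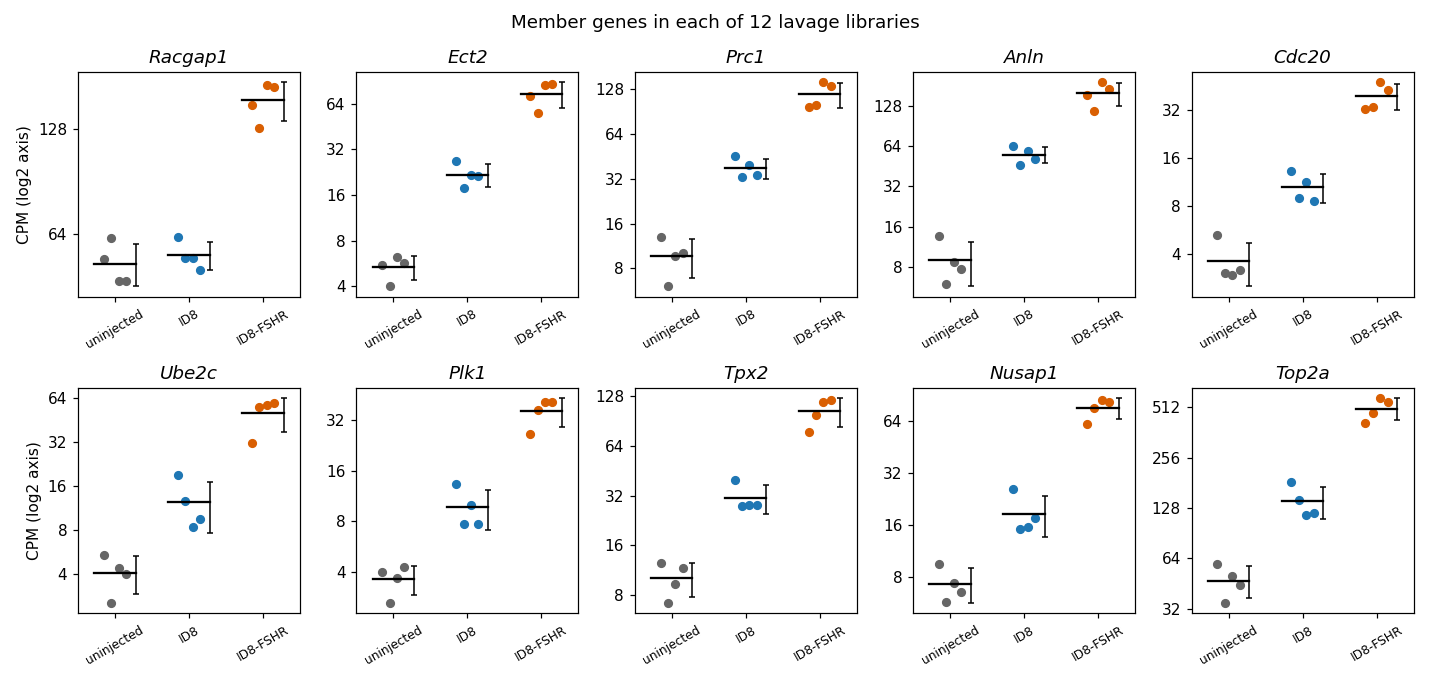
CPM of each member (log2 axis, scaled per panel) in the 4 libraries of each group. Points are libraries in order of replicate number, horizontal lines are group means and bars are SD. Racgap1 libraries overlap between uninjected (mean 52.7 CPM) and ID8 (mean 55.8 CPM), and the other 9 genes show 3 separate levels.

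Of the cytokinesis genes, Racgap1, the GTPase-activating subunit of centralspindlin (chromosome 15, 99620496 to 99651656, minus strand, GRCm38), stood at 54.6, 62.3, 47.0 and 47.1 CPM in uninjected replicates 1 to 4. It stood at 62.9, 54.8, 54.9 and 50.6 CPM in the ID8 replicates and at 150.1, 128.4, 170.5 and 168.6 CPM in the ID8-FSHR replicates. The first 2 groups overlapped, and every ID8-FSHR library was above every other library. On the log2 scale Racgap1 differed by 0.08 (SE 0.11) between ID8 and uninjected lavage and by 1.47 (SE 0.12) between ID8-FSHR and ID8 lavage.

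Ect2, the exchange factor that loads RhoA with GTP (chromosome 3, 27097222 to 27153878, minus strand), was at 5.54, 3.99, 6.22 and 5.73 CPM in uninjected replicates 1 to 4. The ID8 replicates had 26.6, 17.7, 21.5 and 21.4 CPM, and the ID8-FSHR replicates 71.5, 55.3, 84.9 and 86.4 CPM. No 2 groups overlapped. The log2 difference was 2.02 (SE 0.18) for ID8 against uninjected and 1.77 (SE 0.17) for ID8-FSHR against ID8.

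Anln (chromosome 9, 22332012 to 22389188, minus strand) had 13.7, 5.98, 8.81 and 7.75 CPM in uninjected replicates 1 to 4. It had 63.9, 46.5, 58.8 and 51.5 CPM in the ID8 replicates and 152.4, 116.8, 191.3 and 169.4 CPM in the ID8-FSHR replicates. The lowest ID8 library was well above the highest uninjected one, and Anln had the largest log2 difference of the 10 members between ID8 and uninjected lavage, 2.61 (SE 0.23). Its step from ID8 to ID8-FSHR, 1.51 (SE 0.22), was one of the smaller ones among the members.

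Prc1, the microtubule bundler of the midzone (chromosome 7, 80294450 to 80316259, plus strand), ran from 6.03 to 13 CPM in uninjected lavage, from 32.7 to 45.4 CPM with ID8 and from 98.0 to 143.5 CPM with ID8-FSHR. Its log2 differences were 1.96 (SE 0.21) for ID8 against uninjected and 1.65 (SE 0.20) for ID8-FSHR against ID8. Exons of Rccd1 on the opposite strand overlap 911 of the 8225 exon bases of Prc1, and whether the counts used strand is not given. Rccd1 itself averaged 5.67, 5.53 and 3.99 CPM in the uninjected, ID8 and ID8-FSHR groups. Its uninjected and ID8 libraries overlapped, and its ID8-FSHR libraries, where Prc1 was highest, were lower (3.23 to 4.55 CPM).

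Of the APC/C and kinase genes, Cdc20, the coactivator that starts anaphase (chromosome 4, 118432901 to 118437352, minus strand), was at 5.25, 3.04, 2.99 and 3.18 CPM in uninjected replicates 1 to 4. The ID8 replicates had 13.2, 8.97, 11.3 and 8.56 CPM and the ID8-FSHR replicates 32.4, 33.3, 47.5 and 42.3 CPM. Uninjected replicate 1 was the high one of its group, and the 3 groups did not overlap. Exons of Elovl1 on the opposite strand overlap 53 of the 1868 exon bases of Cdc20. Elovl1 averaged 56.3, 62.9 and 64.1 CPM in the uninjected, ID8 and ID8-FSHR groups, above Cdc20 in each.

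Ube2c, the enzyme that hands the first ubiquitin to APC/C substrates (chromosome 2, 164769898 to 164778822, plus strand), was at 5.45, 2.56, 4.40 and 4.05 CPM in the uninjected replicates. The ID8 replicates had 18.9, 12.7, 8.40 and 9.59 CPM, and the ID8-FSHR replicates 31.3, 55.0, 56.7 and 58.7 CPM. ID8-FSHR replicate 1 was low for its group yet above every ID8 library. Within ID8, Ube2c varied more than any other member in any group, with a coefficient of variation of 37.9%. Exons of Tnnc2 on the opposite strand overlap 592 of its 2600 exon bases, and Tnnc2 averaged 0.0101 to 0.0138 CPM in uninjected and ID8 lavage and 0.00456 CPM in ID8-FSHR lavage.

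Plk1 (chromosome 7, 122159439 to 122169873, plus strand) ran from 2.62 to 4.27 CPM in uninjected, from 7.72 to 13.2 CPM in ID8 and from 26.2 to 40.9 CPM in ID8-FSHR lavage. For ID8 against uninjected the log2 differences of Cdc20, Ube2c and Plk1 were 1.54 (SE 0.21), 1.59 (SE 0.29) and 1.42 (SE 0.21). For ID8-FSHR against ID8 they were 1.89 (SE 0.20), 2.02 (SE 0.28) and 1.90 (SE 0.21), so these 3 genes sat close together in each comparison.

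Of the spindle and chromosome genes, Nusap1, a microtubule-bundling protein near chromosomes (chromosome 2, 119618298 to 119651244, plus strand), was at 9.61, 5.79, 7.43 and 6.60 CPM in uninjected replicates 1 to 4. The ID8 replicates had 25.7, 15.3, 15.5 and 17.5 CPM and the ID8-FSHR replicates 61.3, 76.3, 84.3 and 81.9 CPM. The groups did not overlap, and the step from ID8 to ID8-FSHR, 2.03 (SE 0.19) on the log2 scale, was the largest among the members. Its exons overlap those of Oip5 on the opposite strand by 172 bases. Oip5, a centromere protein gene, averaged 0.705, 2.60 and 6.93 CPM in the uninjected, ID8 and ID8-FSHR groups, so it moved in the same order at a lower level.

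Top2a, the DNA topoisomerase that untangles chromatids (chromosome 11, 98992943 to 99024189, minus strand), was at 59.1, 34.8, 50.2 and 44.5 CPM in the uninjected replicates. The ID8 replicates had 183.6, 143.6, 116.6 and 119.7 CPM and the ID8-FSHR replicates 412.1, 472.1, 577.9 and 551.3 CPM. The groups were separate, with log2 differences of 1.58 (SE 0.18) for ID8 against uninjected and 1.84 (SE 0.18) for ID8-FSHR against ID8. Tpx2, which activates Aurora A on spindle microtubules (chromosome 2, 152847964 to 152895321, plus strand), ran from 7.18 to 12.5, from 27.5 to 40.0 and from 78.0 to 122.1 CPM in the same order of groups.

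Compared per kilobase of merged exons, the order of the members changed between groups. Merged exons take in every annotated exon, from 1868 bases in Cdc20 to 9063 in Anln. The transcripts present were not determined, so the order between genes depends on these lengths. In uninjected lavage Racgap1 was first at 7.45 ± 1.03 CPM per kb, above Top2a at 5.23 ± 1.13 and Tpx2 at 2.17 ± 0.51, and the ranges of these 3 did not overlap. From Tpx2 down to Ect2, at 0.997 ± 0.18 CPM per kb, each neighbour overlapped the next. In ID8 lavage Top2a was first at 15.6 ± 3.43 CPM per kb, and Racgap1 followed at 7.88 ± 0.73, overlapping Tpx2 at 6.61 ± 1.30. In ID8-FSHR lavage Top2a led at 55.8 ± 8.39 CPM per kb. The other 9 lay between 13.8 ± 2.68 (Ect2) and 22.3 ± 4.36 (Tpx2), each overlapping its neighbour.

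Measured against the mean log2(CPM + 0.5) of all 10 members in the same library, Racgap1 was 2.44 ± 0.40 above that mean in uninjected lavage (SD, n = 4). It was 1.01 ± 0.14 above it with ID8 and 0.70 ± 0.16 above it with ID8-FSHR, and the 4 uninjected libraries lay above all 8 tumour libraries. Anln moved the other way, from -0.09 ± 0.22 in uninjected lavage to 0.99 ± 0.15 with ID8 and 0.72 ± 0.21 with ID8-FSHR. Top2a, Tpx2 and Cdc20, by contrast, kept nearly constant places. Top2a was at 2.26 ± 0.08, 2.32 ± 0.16 and 2.40 ± 0.04 above the mean in uninjected, ID8 and ID8-FSHR lavage. In the same order Tpx2 was at 0.10 ± 0.15, 0.16 ± 0.04 and 0.13 ± 0.10, and Cdc20 at -1.28 ± 0.21, -1.36 ± 0.13 and -1.28 ± 0.06. Ect2, the partner of Racgap1 at the midzone, was at -0.75 ± 0.20 in uninjected lavage and at -0.33 ± 0.13 and -0.35 ± 0.20 in the tumour groups.

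**Figure D3:**
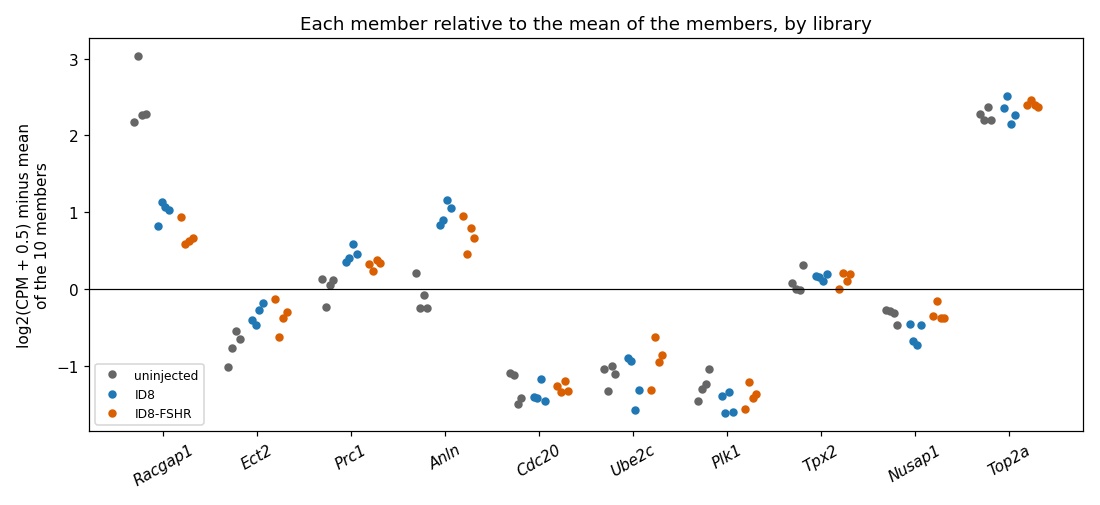
Level of each member in each library as log2(CPM + 0.5) minus the mean of the 10 members in that library (vertical axis, log2 units). Points are libraries, grey for uninjected, blue for ID8 and orange for ID8-FSHR. Racgap1 drops from a mean of 2.44 in uninjected lavage to 0.70 with ID8-FSHR, Anln is lowest in uninjected lavage, and Top2a stays between 2.14 and 2.52.

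Between libraries of a group the members shared their order only in part. ID8 replicate 1 was the highest of the ID8 libraries for all 10 members. The lowest ID8 library was replicate 2 for 5 members, replicate 4 for 3 and replicate 3 for 2. In the ID8-FSHR group replicate 1 was lowest for 7 members and replicate 2 for Anln, Ect2 and Racgap1. Uninjected replicate 2 was lowest for 8 members but the highest of its group for Racgap1. Over the 12 libraries, the Pearson correlation of a member's log2(CPM + 0.5) with the mean of the other 9 was 0.876 for Racgap1, 0.969 for Anln and 0.985 to 0.998 for the rest. These libraries share the 3 groups, so the values describe the group steps as well as the spread within groups. The 8 other genes whose pattern was most like the mean of the members, of 9526 genes ranked over the 12 libraries, were Kif11, Diaph3, Ccnb1, Cdca3, Spag5, Hmmr, Pbk and Ckap2l, with r from 0.997 to 0.998.

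In the fit over all genes, with edgeR's quasi-likelihood test and calls at a Benjamini-Hochberg adjusted p under 0.05, 9 of the 10 members were called higher in ID8 than in uninjected lavage, and 9 were higher with no overlap of the groups, as were 31.8% of all tested genes. Among all tested genes 64.1% were called in that comparison, 32.7% higher and 31.4% lower. For ID8-FSHR against uninjected lavage all 10 members were called higher and did not overlap. There 64.5% of tested genes were called, 33.9% higher and 30.6% lower, and 29.6% were higher with no overlap. For ID8-FSHR against ID8 lavage all 10 members were again called higher and did not overlap. There 11.6% of tested genes were called, 6.04% higher and 5.56% lower, and 7.74% were higher with no overlap. These contrasts chose the members, so nothing is read from the counts. The 2 comparisons with uninjected lavage share their controls.

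The median log2 difference of the members was 1.59 (3.00-fold) for ID8 against uninjected, with a median of -0.03 over all tested genes. It was 3.42 (10.7-fold) for ID8-FSHR against uninjected, beside 0.00 over all tested genes, and 1.80 (3.49-fold) for ID8-FSHR against ID8, beside -0.01. Between the tumour groups the 4 cytokinesis genes had a median of 1.58, the 3 APC/C and kinase genes 1.90 and the 3 spindle and chromosome genes 1.84. Against uninjected lavage the largest values were those of Anln, 2.61 with ID8 and 4.12 with ID8-FSHR, and the smallest those of Racgap1, 0.08 and 1.55. Without ID8-FSHR replicate 2 the Racgap1 value for ID8-FSHR against uninjected was 1.73, and the values of the members between the tumour groups ran from 1.56 (Racgap1) to 2.05 (Nusap1).

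**Figure D4:**
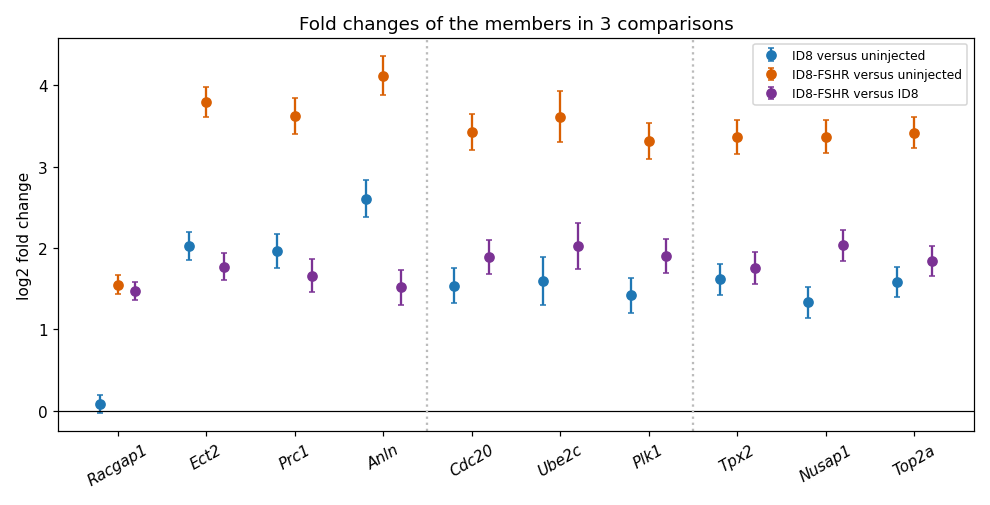
Log2 fold change (vertical axis) of each member in the 3 comparisons, with bars for the standard error of the fit. Dotted lines part the cytokinesis genes, the APC/C and kinase genes, and the spindle and chromosome genes. Racgap1 is at 0.08 for ID8 against uninjected lavage, while the values for ID8-FSHR against ID8 stay between 1.47 and 2.03.

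Scaling bears on the comparisons with uninjected lavage. Scaling by total counts alone moved the median log2 fold change of all tested genes from -0.03 to 0.17 for ID8 and from 0.00 to 0.20 for ID8-FSHR. Of the genes called, 51.0% were higher in ID8 and 52.6% in ID8-FSHR, and with total counts alone these shares were 64.5% and 65.9%. The Racgap1 difference between ID8 and uninjected lavage was then 0.27.

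The members were also set against genes of S phase and against Mki67. The 17 S phase genes included genes of DNA replication and of nucleotide synthesis. The mean log2(CPM + 0.5) of the members minus that of these 17 was -0.92 ± 0.22 in uninjected, -0.38 ± 0.32 in ID8 and 0.27 ± 0.19 in ID8-FSHR lavage. The ID8-FSHR libraries, at 0.10 to 0.53, lay above every other library, while the ID8 libraries (-0.81 to -0.13) reached into the uninjected range (-1.19 to -0.69). Against Mki67, the proliferation antigen that coats mitotic chromosomes, the members stood at -3.09 ± 0.04 in uninjected, -2.28 ± 0.11 in ID8 and -2.39 ± 0.25 in ID8-FSHR lavage. The members were thus lower relative to Mki67 in uninjected lavage than in every tumour library, and the tumour groups overlapped. Because the members were chosen for their differences, these offsets are descriptions.

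For the rest of the machinery, 158 of 159 listed genes were tested, and Septin2 matched 2 rows and was not used. In ID8 against uninjected lavage 80 of the 158 were higher and 26 lower, where 32.7% and 31.4% of all tested genes were. In ID8-FSHR against uninjected lavage 99 were higher and 23 lower, where 33.9% and 30.6% of all tested genes were. With scaling by total counts alone the numbers lower were 17 and 8. In ID8-FSHR against ID8 lavage 74 were higher and 6 lower, where 6.04% and 5.56% of all tested genes were. The 6 were Anapc16, Chmp1b, Chmp5, Myh10, Plk2 and Tsg101. Without ID8 replicate 1, ID8 replicate 3, ID8 replicate 4 or ID8-FSHR replicate 3, the number lower was 2, 3, 3 and 3.

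**Figure D5:**
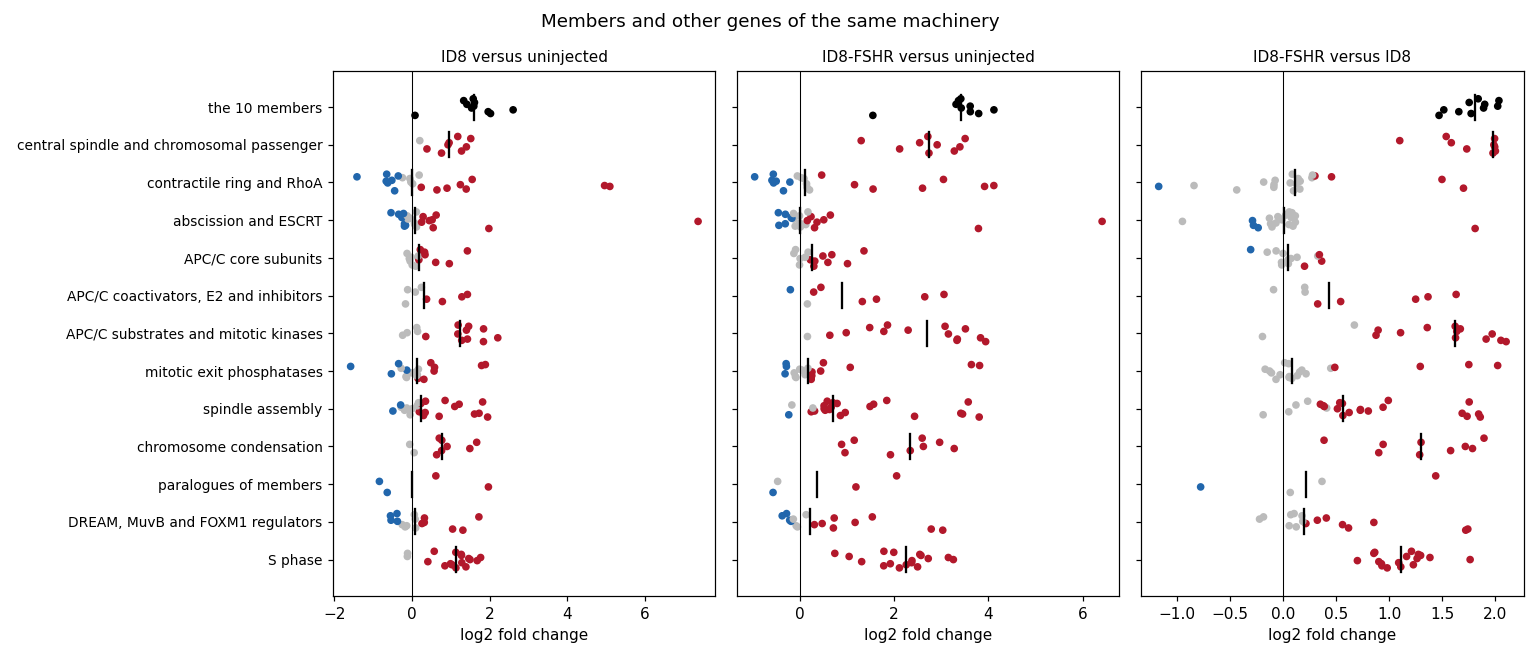
Log2 fold change (horizontal axis) of the 10 members (black) and of each tested gene in 12 lists, in the 3 comparisons. Red points are genes called higher, blue genes called lower and grey genes not called, and vertical ticks are medians. For ID8-FSHR against ID8 the midzone, condensation and S phase lists lie wholly on the higher side, while the APC/C core and ESCRT lists have medians of 0.05 and 0.00.

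The genes nearest to Racgap1, Ect2 and Prc1 in function, the 9 of the central spindle and chromosomal passenger complex, were all higher in ID8-FSHR than in ID8 lavage, with a median log2 fold change of 1.98. In ID8 against uninjected lavage 8 of 9 were higher. Kif23, the motor subunit of centralspindlin, averaged 12.3 ± 1.55 CPM in uninjected, 20.8 ± 3.94 in ID8 and 82.1 ± 18.4 in ID8-FSHR lavage. It rose by 0.76 (SE 0.17, edgeR adjusted p = 0.00172) with ID8 and by a further 1.98 (SE 0.17, edgeR adjusted p = 4.7e-05) with ID8-FSHR. Aurkb, the kinase of the passenger complex, rose by 0.96 and 1.58 in the same comparisons (edgeR adjusted p = 0.00317 and 0.000985). Its scaffold Incenp was at 45.0 ± 4.57 CPM in uninjected and 51.8 ± 3.97 CPM in ID8 lavage, a log2 difference of 0.20 with an edgeR adjusted p of 0.147, and rose to 110.9 ± 18.5 CPM with ID8-FSHR. Incenp passed the threshold in ID8 against uninjected lavage without ID8-FSHR replicate 1 or 2, with the compared groups alone and with total counts alone. The survivin gene Birc5, at 4.04 ± 1.5, 11.5 ± 3.73 and 46.0 ± 8.77 CPM in the 3 groups, had the largest rise of this list against uninjected lavage.

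The contractile ring list, by contrast, was mixed. Between the tumour groups 4 of its 20 tested genes were higher and 1 was lower (2 without ID8-FSHR replicate 1), and against uninjected lavage 8 were higher and 7 lower with ID8. Cit, the citron kinase of the midbody, rose by 1.70 from ID8 to ID8-FSHR (SE 0.16, edgeR adjusted p = 6.1e-05), from 12.6 ± 1.82 to 41.0 ± 6.39 CPM. Rhoa itself, the target of Ect2, was at 757.5 ± 19.1 CPM in uninjected lavage, 557.0 ± 49.3 with ID8 and 595.2 ± 112 with ID8-FSHR. It fell by 0.44 with ID8 (edgeR adjusted p = 0.00418) and differed by 0.10 between the tumour groups (edgeR adjusted p = 0.617). Myh10, the nonmuscle myosin heavy chain IIB, rose from 2.07 ± 0.35 to 70.7 ± 12.8 CPM with ID8 and was lower with ID8-FSHR, at 31.3 ± 7.82 CPM (log2 difference -1.18, edgeR adjusted p = 0.00171). Myl9, a myosin light chain of contractile cells, was at 0.0637 ± 0.104 CPM in uninjected and 1.97 ± 0.40 CPM in ID8 lavage.

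Summed markers of mesothelial and ID8 tumour cells had the same order of groups as Myh10, not that of the members. The sum of 13 markers was 22.4 to 25.8 CPM in uninjected, 2938 to 3691 CPM in ID8 and 1032 to 2630 CPM in ID8-FSHR lavage. Between the tumour groups 5 of the 13 were lower and 0 higher in ID8-FSHR, with a median log2 fold change of -0.60. The rest were not called, so the sum does not describe every marker. Vegfa, for which the line is labelled, ran from 46.8 to 58.3 CPM in ID8 and from 37.6 to 75.9 CPM in ID8-FSHR lavage. Without ID8-FSHR replicate 2, 5 of the markers were lower and 1 higher. The members were 3.49-fold higher at the median in ID8-FSHR than in ID8 lavage. The part of cell composition in the levels of the members was not tested.

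Of the abscission genes, which cut the last bridge between daughter cells, 1 of 22 was higher and 3 were lower in ID8-FSHR than in ID8 lavage, with a median log2 fold change of 0.00. Without ID8 replicate 1 or ID8 replicate 3 the number lower was 1. The gene that was higher was Cep55, which brings ESCRT proteins to the midbody. It averaged 3.38 ± 0.98, 13.4 ± 1.85 and 46.9 ± 7.08 CPM in uninjected, ID8 and ID8-FSHR lavage and rose by 1.81 between the tumour groups (SE 0.18, edgeR adjusted p = 8.9e-05). Chmp4c, an ESCRT-III subunit of the abscission checkpoint, followed another order, at 0.0823 ± 0.0763, 13.6 ± 1.47 and 7.04 ± 2.09 CPM. Its difference between the tumour groups was -0.95 (SE 0.30), with an edgeR adjusted p of 0.06, while DESeq2 gave an adjusted p of 0.00266 and limma-voom 0.00693.

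The 14 core subunits of the APC/C, which Cdc20 and Ube2c serve, had 3 genes higher and Anapc16 lower in ID8-FSHR than in ID8 lavage, with a median log2 fold change of 0.05. Anapc5 had the largest rise of the list, from 163.4 ± 8.75 to 209.9 ± 8.29 CPM (0.36, SE 0.06, edgeR adjusted p = 0.0014). The call for Anapc16, at -0.31 with an edgeR adjusted p of 0.0349, was lost without ID8 replicate 1, 3 or 4, ID8-FSHR replicate 2, 3 or 4, or uninjected replicate 4, and with total counts alone, the compared groups alone or no low-count filter. Anapc15, which helps the checkpoint let go of the complex, was at 9.01 ± 1.16 CPM in uninjected lavage and rose with ID8 to 24.2 ± 3.31 CPM (1.43, SE 0.14, edgeR adjusted p = 1.7e-06), with 23.1 ± 3.68 CPM with ID8-FSHR.

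Among the other regulators of the complex 5 of 8 were higher in ID8-FSHR than in ID8 lavage and none was lower. Fzr1, the coactivator that replaces Cdc20 late in mitosis, rose by 0.32 (SE 0.07, edgeR adjusted p = 0.0117), from 26.1 ± 1.83 to 32.7 ± 1.95 CPM. Ube2s, which lengthens the chains that Ube2c starts, rose by 0.54 (SE 0.07, edgeR adjusted p = 0.000339), from 31.0 ± 1.09 to 45.1 ± 2.96 CPM. The inhibitors Fbxo5 and Bub1b rose by 1.25 and 1.63 (edgeR adjusted p = 0.000201 and 0.00015). These values stand beside 1.89 for Cdc20 and 2.02 for Ube2c.

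Of 14 APC/C substrates and mitotic kinases, 12 were higher in ID8-FSHR than in ID8 lavage, with a median log2 fold change of 1.62. Ccnb1, the cyclin whose destruction ends mitosis, averaged 3.32 ± 1.22, 11.9 ± 3.17 and 51.2 ± 8.79 CPM in uninjected, ID8 and ID8-FSHR lavage and rose by 2.10 between the tumour groups (SE 0.23, edgeR adjusted p = 0.000148). Its kinase Cdk1 rose by 1.62 and Ccnb2 by 2.05 (edgeR adjusted p = 0.000705 and 0.000741). Aurka, the kinase that Tpx2 activates, averaged 2.99 ± 1.02, 6.77 ± 2.10 and 26.6 ± 6.11 CPM, and its rise from ID8 to ID8-FSHR of 1.97 (edgeR adjusted p = 0.00053) stood beside 1.75 for Tpx2.

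Securin, which the APC/C marks for destruction, and its partner separase did not follow the same order. Pttg1 (securin) averaged 17.5 ± 1.83, 22.4 ± 0.97 and 19.5 ± 2.35 CPM in the 3 groups, and its difference between the tumour groups was -0.20 (SE 0.10, edgeR adjusted p = 0.212). Espl1 (separase) averaged 49.9 ± 4.78, 42.3 ± 6.51 and 77.6 ± 11.2 CPM. It rose by 0.87 from ID8 to ID8-FSHR (SE 0.13, edgeR adjusted p = 0.0008), and its difference between ID8 and uninjected lavage was -0.24 (edgeR adjusted p = 0.113). Without ID8 replicate 2 that last value was -0.34 and passed the threshold (edgeR adjusted p = 0.0289).

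Of 19 genes of the phosphatases of mitotic entry and exit and their regulators, 4 were higher and none was lower in ID8-FSHR than in ID8 lavage, and 7 were higher without ID8-FSHR replicate 1. The 4 were the phosphatases Cdc25a, Cdc25b and Cdc25c and the kinase Mastl, so no PP1, PP2A or Cdc14 gene was among them. Without ID8-FSHR replicate 1 the PP2A subunit gene Ppp2r5c was called higher (0.27, edgeR adjusted p = 0.0267). Mastl, the kinase that holds PP2A in check through Ensa and Arpp19, averaged 2.33 ± 0.60, 8.65 ± 2.12 and 29.1 ± 5.31 CPM and rose by 1.75 (SE 0.20, edgeR adjusted p = 0.000184). Cdc25b, a phosphatase that activates Cdk1, had its lowest level in ID8 lavage: 59.6 ± 7.23 CPM in uninjected, 19.97 ± 1.56 in ID8 and 48.9 ± 7.13 in ID8-FSHR lavage. It fell by 1.58 with ID8 (SE 0.12, edgeR adjusted p = 1.3e-07) and was 1.29 higher in ID8-FSHR than in ID8 (SE 0.12, edgeR adjusted p = 5.9e-05), an order that none of the 10 members showed.

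Of 23 spindle assembly genes, 18 were higher and none was lower in ID8-FSHR than in ID8 lavage. Hmmr, a spindle protein that binds Tpx2, rose by 1.86 (SE 0.17, edgeR adjusted p = 6.7e-05), from 19.2 ± 3.84 to 69.5 ± 13.5 CPM. Numa1, which anchors spindle poles, was at 248.1 ± 9.61, 240.6 ± 19.0 and 210.8 ± 17.4 CPM in the 3 groups and differed by -0.19 between the tumour groups (edgeR adjusted p = 0.118). All 9 condensation genes were higher in ID8-FSHR than in ID8. The call for Ncaph2, a condensin II subunit (0.38, edgeR adjusted p = 0.0217), was lost without any 1 of the 4 ID8 libraries, without ID8-FSHR replicate 3 or 4 and with the compared groups alone. Without any 1 of those libraries 8 of the 9 were called. Among them Ncapg, a condensin I subunit, rose by 1.78 and Ncapd3, a condensin II subunit, by 0.94 (edgeR adjusted p = 0.000148 and 0.000109). Mki67 rose by 1.89 (SE 0.18, edgeR adjusted p = 7.8e-05), from 136.0 ± 23.4 to 504.8 ± 104 CPM.

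The paralogues of the members did not share one pattern. Top2b, the topoisomerase of resting as well as dividing cells, was at 300.5 ± 16 CPM in uninjected, 193.6 ± 10.4 in ID8 and 202.5 ± 10.6 in ID8-FSHR lavage. It fell by 0.63 with ID8 (SE 0.07, edgeR adjusted p = 2.4e-06) and differed by 0.07 between the tumour groups (edgeR adjusted p = 0.545), where Top2a differed by 1.84. Plk4, the kinase of centriole duplication, rose by 1.44 from ID8 to ID8-FSHR (SE 0.16, edgeR adjusted p = 0.000152), from 7.30 ± 1.75 to 19.8 ± 2.25 CPM. Plk2, a stress-responsive polo kinase, was lower in ID8-FSHR than in ID8, at 80.5 ± 14.5 against 138.2 ± 39.1 CPM (log2 difference -0.78, SE 0.19, edgeR adjusted p = 0.0184). That call was lost without ID8 replicate 1, ID8 replicate 4 or ID8-FSHR replicate 3, and with the compared groups alone.

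Among 16 genes of the complexes that act at CHR and CCAAT elements, 8 were higher and none was lower in ID8-FSHR than in ID8 lavage, with a median log2 fold change of 0.20. Foxm1 averaged 6.99 ± 1.98, 17.4 ± 4.21 and 57.2 ± 9.61 CPM in uninjected, ID8 and ID8-FSHR lavage and rose by 1.72 between the tumour groups (SE 0.20, edgeR adjusted p = 0.000208). Mybl2 (B-Myb) averaged 2.37 ± 0.13, 4.90 ± 1.00 and 16.4 ± 2.01 CPM and rose by 1.74 (SE 0.15, edgeR adjusted p = 4.4e-05). These sizes lay inside the range of the members, 1.47 to 2.03. Nfya, the NF-Y subunit that contacts CCAAT, was at 26.1 ± 2.34, 17.8 ± 0.78 and 20.1 ± 2.13 CPM. It fell by 0.55 with ID8 (SE 0.09, edgeR adjusted p = 0.000157) and differed by 0.18 between the tumour groups (edgeR adjusted p = 0.224). All 17 S phase genes were higher in ID8-FSHR than in ID8, with a median of 1.11 beside 1.80 for the members.

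Other cell types also differed between the tumour groups. Of the T cell markers 5 of 9 and of the NK cell markers 4 of 4 were higher in ID8-FSHR than in ID8 lavage. For T cells the number was 2 without ID8 replicate 2, 3 or 4 or ID8-FSHR replicate 2 or 4, 3 without ID8 replicate 1 and 8 without ID8-FSHR replicate 3. For NK cells it was 2 without ID8 replicate 3 or 4 or ID8-FSHR replicate 2 or 4. Of 5 monocyte markers 2 were higher and 1 lower, with a median log2 fold change of 0.61, and the number higher was 0 without ID8-FSHR replicate 2 or 4 or ID8 replicate 3 or 4, and 1 without ID8 replicate 1 or 2, ID8-FSHR replicate 3 or uninjected replicate 2 or 4. The summed T cell markers were 38.8 to 46.7 CPM in ID8 and 63.0 to 137 CPM in ID8-FSHR lavage, and the NK cell markers 5.64 to 15.2 and 11.4 to 59.1 CPM. In uninjected lavage, where the members other than Racgap1 were lowest, the T cell markers summed to 58.1 to 155 CPM and the NK cell markers to 8.91 to 14.8 CPM. Macrophage markers summed to 22652 to 28685 CPM in uninjected, 9442 to 12083 CPM in ID8 and 6507 to 8893 CPM in ID8-FSHR lavage. Between the tumour groups 2 of the 10 macrophage markers were lower (1 without ID8-FSHR replicate 2 or 3, 0 without ID8 replicate 3) and none was higher (1 without ID8-FSHR replicate 1), with a median log2 fold change of 0.20, so the lower sum with ID8-FSHR does not describe most of the markers. B cell markers were lower in both tumour groups for 6 of 6 genes. Their part in the differences of the members was not tested.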

How the data were processed

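Bulk RNA from peritoneal lavage cells was sequenced in 12 libraries, 4 per group, after ribosomal RNA depletion from 100 ng of RNA, per the labels' protocols. The values deposited by the authors are raw counts, whole numbers for 55401 genes, with no sign of normalization. They were made with bcl2fastq 2.20, Subread 1.6.4 featureCounts and STAR 2.7.9a on GRCm38.p6, per the submitters' processing notes. No source used here gives the strand setting or annotation release. Of the counts from 1 to 20, 74.8% were even, so whether a count is a read or a read pair is unclear. No libraries of a group agreed within sampling noise.

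Counts of all 12 libraries were fitted in R 4.3.3 with edgeR 4.0.16 (group only, TMM scaling, default low-count filter, robust quasi-likelihood F test, Benjamini-Hochberg adjustment over 16915 genes, threshold 0.05), checked first on simulated data. SE is the log2 fold change divided by the square root of F. The alternatives were DESeq2 1.42.0, limma 3.58.1 (voom), other scalings and filters, the compared groups alone, a replicate block, a threshold of 0.01 and leaving out each library, and counts per list without each library were added after seeing the data. P-values set a group difference against the spread between these libraries. Positions and exon lengths came from GENCODE mouse release 21, in which 55141 identifiers matched ignoring version.

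The members, lists and markers were chosen with earlier results of these data known. Named genes were the 10 members, a set of partner genes written down with the lists, the highest and lowest of each list in each comparison, and the 8 genes most correlated with the members. Genes in counts of 6 or fewer, Elovl1, Oip5, Rccd1, Tnnc2 and the markers were added.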

Additional observations from a re-analysis of the deposited data

Results flagged for a closer look

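Of 78 groups of 4 libraries checked, 9 held a library far from the other 3, where chance gives about 1 in 20. The checks share libraries, and a sum holds genes that were also checked alone. They are therefore not independent, and no excess over that rate is read from the 9. Among the members, Cdc20 was at 5.25 CPM in uninjected replicate 1 against 2.99 to 3.18 CPM in the others. Ube2c was at 31.3 CPM in ID8-FSHR replicate 1 against 55.0 to 58.7 CPM, and Tpx2 was at 40.0 CPM in ID8 replicate 1 against 27.5 to 28.1 CPM. The summed members reached 493.5 CPM in ID8 replicate 1 against 348 to 367 CPM.

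Among cell type markers, the macrophage sum was 6507 CPM in ID8-FSHR replicate 4 against 8622 to 8893 CPM, and the monocyte sum was 833 CPM in uninjected replicate 2 against 1086 to 1135 CPM. Erythroid markers summed to 362 CPM in ID8-FSHR replicate 3 against 2.54 to 10.7 CPM, and to 83.6 CPM in uninjected replicate 4 against 0.671 to 8.75 CPM. Endothelial markers summed to 43.2 CPM in ID8-FSHR replicate 2 against 25.3 to 27.7 CPM.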

How the results depend on the processing

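Of 630 recomputed member fold changes, 627 kept their direction and moved by less than the spread between replicates. The other 3 were Racgap1 against uninjected lavage: 0.27 (ID8) and 1.74 (ID8-FSHR) with total counts alone, and 1.73 (ID8-FSHR) without ID8-FSHR replicate 2. The number of all genes called between ID8-FSHR and ID8, 1962, was 3116 with DESeq2 and 707 at an adjusted p under 0.01. With 1 library left out it ran from 961 to 3136: 1203, 1035 and 961 without ID8 replicates 1, 3 and 4, and 3136 and 1189 without ID8-FSHR replicates 1 and 4. The cause was not tested. Listed partner genes called lower numbered 17 (ID8) and 8 (ID8-FSHR) against uninjected lavage with total counts alone, 13 (ID8-FSHR) at an adjusted p under 0.01, and between the tumour groups 2 at that threshold and 2 to 7 with 1 library left out.

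Same-numbered libraries did not deviate together (r from -0.11 to 0.19), so the numbers were not taken as pairs. With the replicate block the genes called were 10581, 10666 and 1776, against 10847, 10913 and 1962, and the numbers of members called were the same. Of the named partner genes, 12 comparisons lost their call and 9 gained one under at least 1 alternative. Depth did not limit the members, whose lowest count was 139. Strand and read counting limit Prc1, Ube2c, Nusap1, Plk1 and Cdc20, whose exons overlap genes on the opposite strand.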
